A study of Rattus norvegicus with 9 samples.

Results

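Genes of the major histocompatibility complex (MHC), called RT1 in the rat, and of the machinery that loads peptides onto MHC molecules were followed through 9 RNA sequencing libraries of cultured rat fibroblasts (Fb). The members were every deposited row whose symbol starts with RT1- (31 rows) and 10 named genes, *B2m*, *Tap1*, *Tap2*, *Tapbp*, *Cd74*, *Ciita*, *Psmb8*, *Psmb9*, *Psmb10* and *Nlrc5*, which gave 41 of 32883 genes. The study compared fibroblasts of the epineurium, the outer sheath of the sciatic nerve (Fb-Epn), of the nerve parenchyma within it (Fb-Par) and of skin (Fb-Skn), with 3 samples of each. All cells came from wild-type Lewis rats without further treatment. The nerves were those of 2 male rats and the abdominal skin that of 1 other male rat, all 10 weeks of age, and the cells were sequenced after 1 passage in medium with 10% fetal bovine serum. The 3 samples of a type can therefore not be 3 animals, the sources used here do not say whether they were separate cultures, and every SD and p-value below measures the spread between these samples, which may be technical. Between nerve and skin the tissue, the rat and the body site differ at once and cannot be told apart.

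MHC class I molecules are made of a heavy chain, encoded by the class I RT1 genes, and the light chain beta-2 microglobulin (*B2m*), and they display peptides from inside the cell to CD8 T cells and natural killer cells. The peptides are cut by the proteasome, carried into the endoplasmic reticulum by the transporter of *Tap1* and *Tap2*, and loaded with the help of tapasin (*Tapbp*). Class II molecules (RT1-B and RT1-D) display peptides from endosomes to CD4 T cells, with the invariant chain *Cd74* as their escort. They are mostly found on professional antigen presenting cells, while fibroblasts make them chiefly after exposure to interferon gamma. *Nlrc5* and *Ciita* are the transcriptional coactivators of the class I and class II genes. On rn6, the build of the deposited tables, 36 members lie on chromosome 20 between 154074 and 5476193, and the other 5 elsewhere.

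The stretches before 5 of the genes are shown because both kinds of MHC promoter are read through a shared set of short elements. They were taken from RefSeq promoters on GRCr8, which held 35 of the 41 members (250 bases before to 50 after each gene's start), and are printed 5′ to 3′ on the gene's strand up to the base before the start. The stretch of *B2m* is chr3:129549080-129549329 (plus strand), that of *RT1-A1* chr20:4906959-4907208 (plus), that of *RT1-A2* chr20:4872621-4872870 (plus), that of *RT1-CE4* chr20:3509157-3509406 (minus) and that of *RT1-N3* chr20:2666239-2666488 (plus). Capitals mark matches, on either strand, to the interferon response core GAAANNGAA, the X2 core TGACG, the Y box core CCAAT, the STAT core TTCNNNGAA and the kappa B core of class I enhancer A, GGGATTCCC.
B2m: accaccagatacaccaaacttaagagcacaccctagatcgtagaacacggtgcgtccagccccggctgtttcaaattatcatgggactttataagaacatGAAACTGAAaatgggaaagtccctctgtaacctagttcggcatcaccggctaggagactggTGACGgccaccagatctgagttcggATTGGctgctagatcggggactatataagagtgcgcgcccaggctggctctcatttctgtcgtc
RT1-A1: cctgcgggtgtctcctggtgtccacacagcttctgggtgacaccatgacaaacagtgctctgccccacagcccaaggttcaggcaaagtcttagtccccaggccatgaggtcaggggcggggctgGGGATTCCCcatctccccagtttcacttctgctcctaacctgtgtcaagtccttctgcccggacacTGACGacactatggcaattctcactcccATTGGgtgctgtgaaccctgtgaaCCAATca
RT1-A2: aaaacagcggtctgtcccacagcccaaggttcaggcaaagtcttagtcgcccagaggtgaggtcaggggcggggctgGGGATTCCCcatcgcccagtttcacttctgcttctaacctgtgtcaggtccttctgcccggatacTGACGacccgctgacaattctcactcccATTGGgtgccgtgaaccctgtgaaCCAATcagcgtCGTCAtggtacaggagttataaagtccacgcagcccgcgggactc
RT1-CE4: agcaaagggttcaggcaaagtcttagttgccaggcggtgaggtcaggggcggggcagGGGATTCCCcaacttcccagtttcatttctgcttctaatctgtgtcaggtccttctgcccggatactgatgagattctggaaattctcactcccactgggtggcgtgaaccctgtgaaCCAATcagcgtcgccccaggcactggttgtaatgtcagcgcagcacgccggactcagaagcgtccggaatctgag
RT1-N3: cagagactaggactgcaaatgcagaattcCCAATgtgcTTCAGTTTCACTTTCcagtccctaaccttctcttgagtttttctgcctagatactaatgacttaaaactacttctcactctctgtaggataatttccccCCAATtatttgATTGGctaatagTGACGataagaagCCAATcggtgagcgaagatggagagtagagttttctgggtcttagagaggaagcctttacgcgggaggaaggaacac
*B2m*, *RT1-A1* and *RT1-A2* each hold TGACG followed by ATTGG, the Y box core read on the other strand, with 20, 23 and 23 bases between them. In *RT1-N3* the capital run that opens with TTCAGTTTC is 2 overlapping matches to the interferon response core on the other strand. The stretch from TGACG to CCAAT had 52 of 57 bases in common between *RT1-A1* and *RT1-A2*. Over the best placement without gaps of their stretches before the start, 132 of 201 bases (65.7%) were the same. Over the whole RefSeq stretches of 300 bases, GGGATTCCC was found in 4 of the 35 members (11.4%) against 0.365% of all 33469 promoters, in *RT1-A1*, *RT1-A2*, *RT1-CE4* and *RT1-CE10*. CCAAT was found in 26 members (74.3% against 37.5%), GAAANNGAA in 9 (25.7% against 9.71%), TGACG in 8 (22.9% against 21.2%) and TTCNNNGAA in 2 (5.71% against 8.87%). Class I genes are close copies of each other and their promoters are not independent, so these shares are a description of letters and not of bound factors.

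Total counts per library ranged from 10084584 to 12310506, and the members together took 0.0699% to 0.0723% of the counts in the Fb-Epn libraries, 0.129% in those of Fb-Par and 0.113% to 0.123% in Fb-Skn. *B2m* alone gave 58.8% to 61.1% of the members' counts in the Fb-Epn libraries, 82.2% to 83.6% in those of Fb-Par and 75.4% to 77.4% in Fb-Skn. All 9 fibroblast markers with a row passed the expression filter, with summed TPM (transcript abundance scaled for gene length and depth) of 35360 to 44380 and *Col1a1*, a chain of type 1 collagen, as the highest. Markers of other cell types were detected as well. The 24 leukocyte marker rows summed to 1302 to 1378 TPM in the Fb-Epn libraries, 264.7 to 278.1 in those of Fb-Par and 80.6 to 84.1 in Fb-Skn, led by the lysozyme gene *Lyz2*. *Lyz2* and the macrophage gene *Cd68* (153.3, 27.8 and 7.87 TPM on average) gave most of that sum. The B cell genes *Ms4a1* and *Cd79b*, the T cell genes *Cd3e* and *Cd3d*, the natural killer cell gene *Nkg7* and the dendritic cell gene *Flt3* were at 0 counts in every library. The 8 Schwann cell markers, led by *S100b*, summed to 160 to 173.5 TPM in the Fb-Epn libraries, 206.6 to 214.9 in those of Fb-Par and 9.82 to 12.6 in Fb-Skn, and the 7 endothelial rows, led by *Tek*, to 15.9 to 16.9, 10.6 to 12.5 and 1.00 to 1.604. The 7 keratinocyte rows stayed at 2.45 to 4.78 TPM, led by *Krt10* and with *Krt1* at 0. In these bulk samples fewer cells of a type and less RNA per cell cannot be told apart.

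Of the 41 members, 25 had enough counts to be tested with edgeR's quasi-likelihood test among 13273 genes, and a gene was called at a Benjamini-Hochberg adjusted p under 0.01. In Fb-Epn against Fb-Skn, 4 of the 25 were higher in Fb-Epn (all genes tested 23.0%) and 3 were lower (20.9%). The median log2 fold change of the 25 was 0.31 against -0.00 over all genes. When libraries were scaled by their total counts alone the counts were 5 and 2, and the median over all genes was 0.086. In Fb-Epn against Fb-Par, 7 were higher (20.2%) and 1 was lower (18.6%), with a median of 0.50 against -0.00. In Fb-Par against Fb-Skn, 3 were higher (23.2%) and 7 were lower (22.4%), with a median of -0.41 against -0.01. The 7 of 25 higher in Fb-Epn than Fb-Par and the 7 of 25 lower in Fb-Par than Fb-Skn were above the share over all genes, and the other counts were below it. Both counts fell when single libraries were left out, the former in most such fits. The former was 4 of 27, 4 of 26 and 4 of 27 without Fb-Epn replicate 1, Fb-Epn replicate 2 or Fb-Par replicate 1. It was 6 of 27 without Fb-Par replicate 3 or Fb-Skn replicate 1 and 6 of 26 without Fb-Skn replicate 2 or Fb-Skn replicate 3. Without Fb-Epn replicate 3 or Fb-Par replicate 2 it was 7 of 27. The latter was 6 of 27 and 6 of 26 without Fb-Skn replicate 1 or Fb-Skn replicate 3. The share over all genes in those fits was not computed, so they do not show whether the counts stayed above it. Of those called, a change beyond 4-fold was seen for 0 of the 25 in Fb-Epn against Fb-Skn (all genes 6.22% higher and 2.22% lower), 1 in Fb-Epn against Fb-Par (4.09% and 2.39%) and 1 in Fb-Par against Fb-Skn (5.86% and 2.67%). In all, 15 members were called in at least 1 comparison, 10 in none, and *B2m* was the 1 called in all 3. The share over all genes was not computed for these counts, so they cannot be set against it. The comparisons share libraries, so their counts are not independent of each other.

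**Figure D1:**
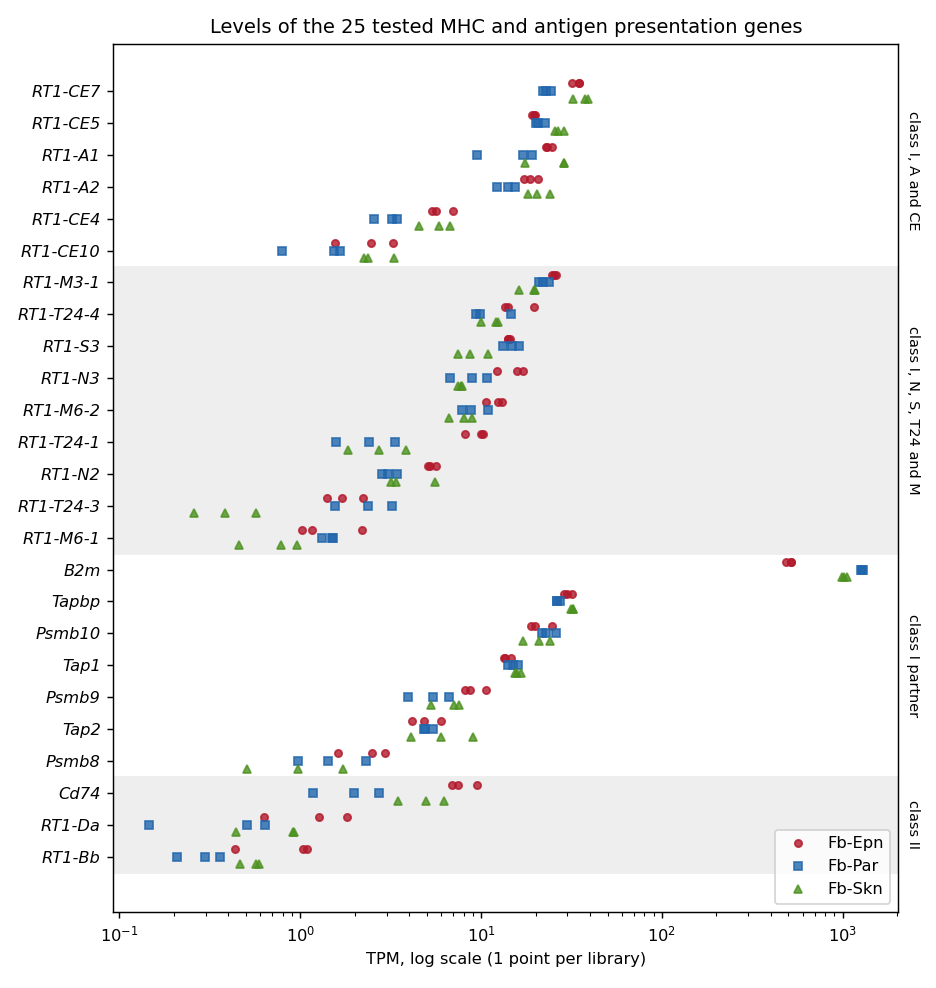
TPM of the 25 tested members in each library on a log scale, 1 point per library, with Fb-Epn as circles, Fb-Par as squares and Fb-Skn as triangles, grouped by role. *B2m* lies far above every other member, with Fb-Epn at 487.8 to 517.5 TPM, Fb-Skn at 987.6 to 1055 and Fb-Par at 1257 to 1286.

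The light chain gene had the smallest adjusted p of all members in both comparisons with Fb-Epn. *B2m* (ENSRNOG00000017123, chromosome 3, 114087287 to 114093309) had 4477, 5344 and 4804 counts in the Fb-Epn libraries, 12812, 10896 and 11724 in Fb-Par and 10508, 8884 and 8656 in Fb-Skn. Its TPM was 506.9 ± 16.5 (SD, n = 3) for Fb-Epn, 1274 ± 14.8 (SD, n = 3) for Fb-Par and 1022 ± 33.9 (SD, n = 3) for Fb-Skn. The 3 types did not overlap, with Fb-Par highest and Fb-Epn lowest. *B2m* was 2.50-fold lower in Fb-Epn than Fb-Par (log2 fold change -1.32, SE 0.037, adjusted p = 5.2e-13, edgeR) and 2.22-fold lower than in Fb-Skn (log2 fold change -1.15, SE 0.037, adjusted p = 1.9e-12). Between Fb-Par and Fb-Skn the difference was small, 1.12-fold higher in Fb-Par (log2 fold change 0.17, SE 0.036, adjusted p = 0.0011). All 3 calls held with each library left out in turn, with highest adjusted p of 2.7e-11, 9.3e-11 and 0.0063.

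As counted here, the summed heavy chain rows did not follow the light chain. The 21 class I RT1 rows summed to 208, 204.2 and 209.4 TPM in the Fb-Epn libraries, 147.1, 160.8 and 155.9 in Fb-Par and 189.7, 173.1 and 184.5 in Fb-Skn. In TPM the order was Fb-Epn above Fb-Skn above Fb-Par, without overlap, where *B2m* ran Fb-Par, Fb-Skn, Fb-Epn. On the deposited FPKM (fragments per kilobase, scaled to depth), a second length-scaled unit, Fb-Par was again lowest, at 85.4 to 90.2, but Fb-Epn (114.4 to 122.7) and Fb-Skn (109 to 127.6) overlapped. The ratio of *B2m* to this sum was 2.45 ± 0.091 (SD, n = 3) for Fb-Epn, 8.25 ± 0.44 (SD, n = 3) for Fb-Par and 5.61 ± 0.28 (SD, n = 3) for Fb-Skn. On FPKM the ratios were 2.00 ± 0.12, 6.84 ± 0.27 and 4.21 ± 0.25 (SD, n = 3), in the same order. These are transcript ratios, and the amount of either protein was not measured. The sum and the ratio also carry the uncertainty in counting class I rows that is described below. The sum of the heavy chain rows hides different patterns in its components. The 8 rows of the A and CE regions summed to 105.8 ± 3.21, 78.3 ± 6.35 and 119.7 ± 9.18 TPM (SD, n = 3) in the epineurial, parenchymal and skin types, and the 13 N, S, T24 and M rows to 101.4 ± 3.09, 76.3 ± 4.70 and 62.7 ± 4.08 (SD, n = 3). The second sum ran in the order of the leukocyte sums (1302 to 1378, 264.7 to 278.1 and 80.6 to 84.1 TPM) and the endothelial sums, whose part in it was not tested.

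**Figure D2:**
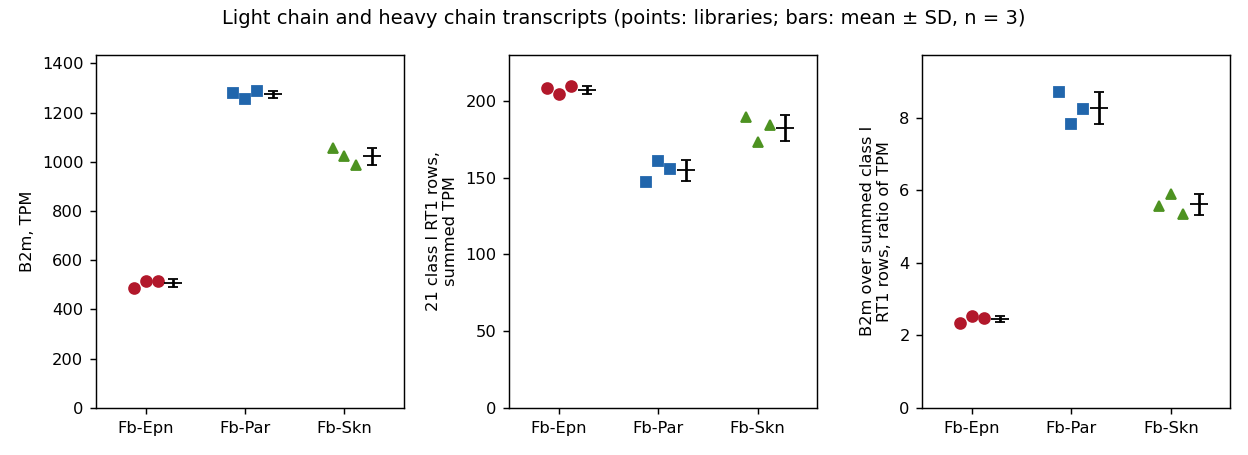
TPM of *B2m*, summed TPM of the 21 class I RT1 rows, and the ratio of the 2 in each library (points), with the mean and SD of the 3 libraries of a type beside them. The ratio lies at 2.35 to 2.52 in the Fb-Epn libraries, 7.82 to 8.70 in those of Fb-Par and 5.35 to 5.91 in Fb-Skn.

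The A and CE rows, which include the classical class I heavy chains of the rat, had their largest median difference between Fb-Par and Fb-Skn. Of the 6 that were tested, 5 were called lower in Fb-Par than Fb-Skn (all genes 22.4%), with a median log2 fold change of -0.84, and the remaining one, *RT1-CE10*, had -1.13 (SE 0.37, adjusted p = 0.019, edgeR). In Fb-Epn against Fb-Par 2 of the 6, *RT1-CE7* and *RT1-CE4*, were higher (all genes 20.2%), and *RT1-A1*, *RT1-A2* and *RT1-CE10* were not called (adjusted p = 0.020, 0.015 and 0.066, edgeR). *RT1-CE7*, the class I row with the highest mean TPM, had 34.9, 31.9 and 35.0 TPM in the Fb-Epn libraries, 24.5, 22.8 and 21.9 in those of Fb-Par and 38.8, 37.6 and 32.1 in Fb-Skn. Every Fb-Par library was below every other library. It was 1.74-fold lower in Fb-Par than Fb-Skn (adjusted p = 1.6e-06, edgeR) and 1.48-fold higher in Fb-Epn than Fb-Par (adjusted p = 6.6e-05). *RT1-CE4* behaved alike at a lower level, with 64 to 78 counts in Fb-Par against 129 to 163 in Fb-Epn and 99 to 147 in Fb-Skn (log2 fold change 0.98, SE 0.17, for Fb-Epn against Fb-Par and -1.05, SE 0.17, for Fb-Par against Fb-Skn). *RT1-A2* had 20.6, 18.6 and 17.3 TPM in the Fb-Epn libraries, 12.2, 14.1 and 15.5 in those of Fb-Par and 24.2, 20.5 and 18.2 in Fb-Skn, and was lower in Fb-Par than Fb-Skn (log2 fold change -0.74, SE 0.14, adjusted p = 3.3e-04). *RT1-A1* spread widely within types, 9.51 to 19.1 TPM in Fb-Par and 17.5 to 28.8 TPM among the Fb-Skn libraries, and its log2 fold change of -0.88 (SE 0.21, adjusted p = 0.0028) was -0.75 without Fb-Skn replicate 1 and -0.78 without Fb-Skn replicate 3, neither of which was called (highest adjusted p = 0.018). It was not called by DESeq2 (-0.85) or by limma on log2(TPM + 1) (-0.70) either.

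*RT1-CE5* was the exception among these rows. It had 19.5, 19.8 and 19.2 TPM in the Fb-Epn libraries, 20.7, 20.1 and 22.7 in those of Fb-Par and 28.8, 26.8 and 25.5 in Fb-Skn. Both nerve types were below Fb-Skn without overlap, by a log2 fold change of -0.61 in Fb-Epn (SE 0.092, adjusted p = 5.4e-05, edgeR) and -0.51 in Fb-Par (SE 0.092, adjusted p = 2.8e-04), and differed from each other by -0.11 (SE 0.094, adjusted p = 0.37). In Fb-Epn against Fb-Skn, *RT1-CE5* was the 1 of the 6 tested A and CE rows that was called (all genes 20.9% lower). The other 5 had log2 fold changes from -0.30 to -0.07, all of them negative, which turned to 0.07 and 0.08 for *RT1-CE4* with limma on TPM.

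The N, S, T24 and M rows pointed the other way, with 4 of 9 tested rows higher in Fb-Epn than Fb-Skn (all genes 23.0%), 0 lower (20.9%) and a median log2 fold change of 0.51. Against Fb-Par, 2 of the 9 were higher in Fb-Epn (20.2%), and in Fb-Par against Fb-Skn 2 of the 9 were higher (23.2%). These rows are non-classical class I genes, which vary less between individuals than classical ones and are expressed in fewer tissues. The 2 groups were split by symbol, so the A and CE rows need not all be classical. *RT1-T24-1* had 47, 66 and 58 counts in the Fb-Epn libraries, 21, 13 and 9 in those of Fb-Par and 17, 10 and 21 in Fb-Skn. Fb-Epn stood clear of both other types, which overlapped each other, and *RT1-T24-1* was 3.05-fold higher than in Fb-Skn (log2 fold change 1.61, SE 0.30, adjusted p = 4.2e-04, edgeR) and 3.85-fold higher than in Fb-Par (1.94, SE 0.31, adjusted p = 1.0e-04). *RT1-N3* showed the same shape, with 15.0 ± 2.50 TPM in the Fb-Epn libraries, 8.81 ± 2.04 in those of Fb-Par and 7.66 ± 0.204 in Fb-Skn (SD, n = 3), and log2 fold changes of 0.83 against Fb-Skn (SE 0.18, adjusted p = 0.0013) and 0.78 against Fb-Par (SE 0.18, adjusted p = 0.0020). The latter call was lost in 3 of 9 fits that each left out 1 library, those without Fb-Epn replicate 1, Fb-Epn replicate 2 or Fb-Par replicate 1 (highest adjusted p = 0.014).

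*RT1-T24-3* and *RT1-S3* were higher in both nerve types than in skin. *RT1-T24-3* had 18, 13 and 14 counts in the Fb-Epn libraries, 21, 12 and 26 in those of Fb-Par and 5, 2 and 3 in Fb-Skn. The nerve types overlapped each other and neither overlapped Fb-Skn. It was 5.10-fold higher in Fb-Par than Fb-Skn (log2 fold change 2.35, SE 0.46, adjusted p = 5.6e-04, edgeR), the 1 class I row past 4-fold, and 3.81-fold higher in Fb-Epn (1.93, SE 0.48, adjusted p = 0.0033). The second call was lost without Fb-Epn replicate 1, Fb-Skn replicate 2 or Fb-Skn replicate 3 (highest adjusted p = 0.018), and on log2(TPM + 1) the first difference was 1.24. *RT1-S3*, a counterpart of human HLA-E, had 14.5, 14.2 and 14.0 TPM in the Fb-Epn libraries, 16.2, 14.9 and 13.3 in those of Fb-Par and 8.72, 7.49 and 10.97 in Fb-Skn. Its differences were near the threshold, 0.51 in Fb-Epn (SE 0.15, adjusted p = 0.0086) and 0.56 in Fb-Par (SE 0.15, adjusted p = 0.0049), and the calls were lost in 7 and in 4 of the 9 fits without 1 library, with highest adjusted p of 0.045 and 0.027. DESeq2 did not call the former (0.52). *RT1-M3-1*, whose mouse counterpart presents N-formylated peptides, had 24.6, 25.2 and 26.03 TPM in the Fb-Epn libraries, 22.0, 23.8 and 20.8 in those of Fb-Par and 19.6, 19.8 and 16.2 in Fb-Skn. The types did not overlap, yet it was not called (log2 fold change 0.31, SE 0.10, adjusted p = 0.020 for Fb-Epn against Fb-Skn), although it was with total-count scaling (0.40) and with limma on log2(TPM + 1) (0.43). In those settings the median of all genes was 0.086 and 0.126 in that comparison. The other 4 tested rows, *RT1-T24-4*, *RT1-N2*, *RT1-M6-1* and *RT1-M6-2*, were called in no comparison, but limma on log2(TPM + 1) called *RT1-M6-2* higher in Fb-Epn than Fb-Skn (0.56). In Fb-Epn against Fb-Par, *RT1-N2* was called with at least 10 counts in every library (0.78) and in the fit of only the libraries compared (0.78), and on log2(FPKM + 1) *RT1-N2* (0.58) and *RT1-T24-4* (0.44) were.

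**Figure D3:**
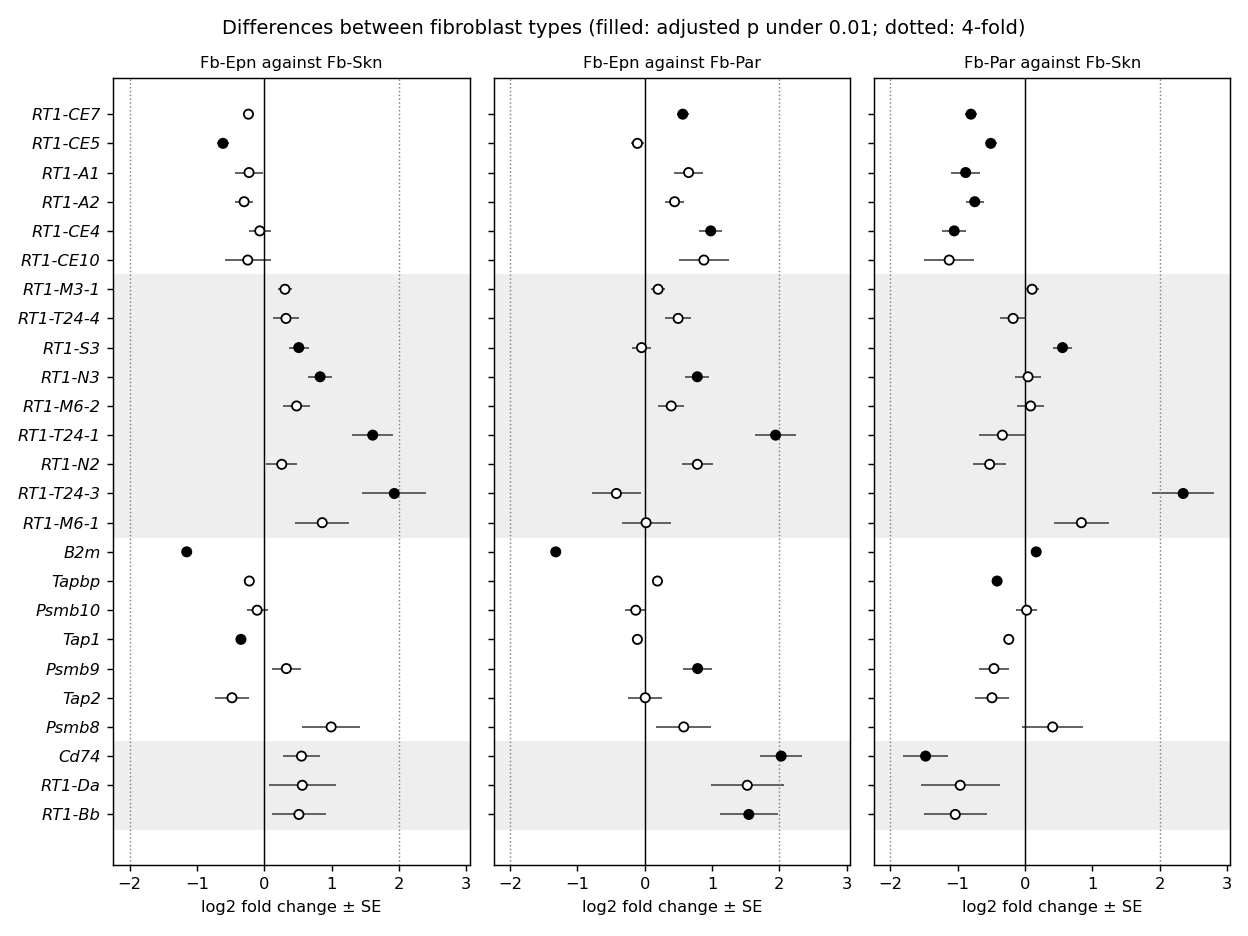
Log2 fold change with its standard error for the 25 tested members in the 3 comparisons, filled where the adjusted p was under 0.01, with dotted lines at a 4-fold change. The A and CE rows lie left of 0 in Fb-Par against Fb-Skn, from -1.13 to -0.51, and the N, S, T24 and M rows lie right of 0 in Fb-Epn against Fb-Skn, from 0.26 to 1.93.

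Of the 7 tested genes that pair with, supply or load class I molecules, *B2m* included, *Tap1* was the other one called in Fb-Epn against Fb-Skn, *Psmb9* in Fb-Epn against Fb-Par and *Tapbp* in Fb-Par against Fb-Skn. *Tap1* had 13.5, 13.4 and 14.7 TPM in the Fb-Epn libraries, 16.1, 14.9 and 14.1 in those of Fb-Par and 15.5, 15.9 and 16.7 in Fb-Skn, and was 1.27-fold lower in Fb-Epn than Fb-Skn (log2 fold change -0.35, SE 0.075, adjusted p = 0.0013, edgeR). This call ended with total-count scaling (-0.26) and with limma on TPM (-0.19). The median of all genes there was 0.086 and, on log2(TPM + 1), 0.126. *Tap2* had 4.84, 6.03 and 4.14 TPM in the Fb-Epn libraries, 4.81, 5.39 and 4.87 in those of Fb-Par and 5.98, 4.07 and 9.02 in Fb-Skn, and was not called. *Tapbp* had 31.8, 28.9 and 29.9 TPM in the Fb-Epn libraries, 26.3, 27.4 and 26.2 in those of Fb-Par and 32.3, 32.2 and 31.2 in Fb-Skn. All Fb-Par libraries were below the others, and *Tapbp* was 1.33-fold lower in Fb-Par than Fb-Skn (log2 fold change -0.41, SE 0.071, adjusted p = 1.8e-04). An antisense row overlaps *Tapbp* by 581 bases and had at most 56 counts in a library.

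The immunoproteasome subunits *Psmb8*, *Psmb9* and *Psmb10* take the place of the constitutive catalytic subunits *Psmb5*, *Psmb6* and *Psmb7*, most strongly after interferon gamma. *Psmb9* had 62, 75 and 82 counts in the Fb-Epn libraries, 45, 48 and 30 in those of Fb-Par and 44, 51 and 55 in Fb-Skn. It was 1.72-fold higher in Fb-Epn than Fb-Par (log2 fold change 0.79, SE 0.22, adjusted p = 0.0085, edgeR), a call lost in 7 of the 9 fits without 1 library (highest adjusted p = 0.045) and kept without Fb-Par replicate 2 or Fb-Skn replicate 1. Limma on log2(TPM + 1) did not call it (0.69). *Psmb8* had 26, 19 and 31 counts in the Fb-Epn libraries, 26, 14 and 10 in those of Fb-Par and 11, 5 and 17 in Fb-Skn, and *Psmb10* 124, 112 and 96, then 118, 122 and 113, then 114, 114 and 81. Neither was called in any comparison. In TPM, *Psmb8* stood at 2.21 ± 0.52%, 1.38 ± 0.64% and 0.807 ± 0.469% of *Psmb5* in the epineurial, parenchymal and skin types (SD, n = 3), and *Psmb9* at 6.49 ± 1.13%, 3.57 ± 0.908% and 4.30 ± 1.07% of *Psmb6*. *Psmb10* stood at 22.8 ± 3.12%, 28.8 ± 2.84% and 23.5 ± 2.48% of *Psmb7* (SD, n = 3). The constitutive subunits were thus the more abundant ones in every type, at 105.7, 115.6 and 132.3 TPM for *Psmb5*, 141.4, 149.4 and 156.6 for *Psmb6* and 93.0, 81.4 and 88.1 for *Psmb7* (means of the epineurial, parenchymal and skin types).

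Class II transcripts were scarce in all 9 libraries. Of the class II members, 3 of 12 passed the expression filter, *Cd74*, *RT1-Da* and *RT1-Bb*. The 10 class II RT1 rows summed to 7.82, 6.12 and 3.93 TPM in the Fb-Epn libraries, 1.58, 1.62 and 1.78 in those of Fb-Par and 1.79, 2.48 and 2.67 in Fb-Skn. In this sum Fb-Epn was above both other types, but *RT1-DMb*, which did not pass the filter, gave 3.09, 3.62 and 0.49 TPM of it in the Fb-Epn libraries. Without that row the sums were 4.73, 2.51 and 3.44 TPM in Fb-Epn, 0.94 to 1.09 in Fb-Par and 1.64 to 2.67 in Fb-Skn, and Fb-Epn overlapped Fb-Skn. *Cd74* (ENSRNOG00000018735, chromosome 18, 56071478 to 56080849) had 48, 59 and 67 counts in the Fb-Epn libraries, 9, 13 and 19 in those of Fb-Par and 47, 23 and 33 in Fb-Skn. Fb-Par was lowest without overlap, and every Fb-Epn library was at or above the highest Fb-Skn library. *Cd74* was 4.08-fold higher in Fb-Epn than Fb-Par (log2 fold change 2.03, SE 0.32, adjusted p = 8.5e-05, edgeR), the 1 member past 4-fold in that comparison, although not without Fb-Epn replicate 3 or Fb-Par replicate 1 (lowest 1.75), and 2.78-fold lower in Fb-Par than Fb-Skn (-1.48, SE 0.33, adjusted p = 0.0015). The latter was not called without Fb-Skn replicate 1 (-1.24, adjusted p = 0.011). Between Fb-Epn and Fb-Skn *Cd74* was not called (0.55, SE 0.28, adjusted p = 0.11).

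*RT1-Bb*, the beta chain of RT1-B, had 21, 25 and 9 counts in the Fb-Epn libraries, 8, 4 and 6 in those of Fb-Par and 13, 11 and 9 in Fb-Skn. It was 2.92-fold higher in Fb-Epn than Fb-Par (log2 fold change 1.55, SE 0.43, adjusted p = 0.0085, edgeR), but the call held in 1 of 9 fits without 1 library, that without Fb-Epn replicate 3 (highest adjusted p = 0.046 in the others). DESeq2 (1.56) and limma on log2(TPM + 1) (0.51) did not call it. *RT1-Da*, the alpha chain of RT1-D, had 16, 9 and 23 counts in the Fb-Epn libraries, 2, 6 and 8 in those of Fb-Par and 6, 11 and 11 in Fb-Skn and was not called (1.52, SE 0.54, adjusted p = 0.031 for Fb-Epn against Fb-Par). *RT1-DMb*, a chain of the peptide editor of class II, failed the filter, and 2 of the Fb-Epn libraries held most of its reads. It had 37, 49 and 6 counts in the Fb-Epn libraries, 8, 6 and 10 in those of Fb-Par and 2, 2 and 0 in Fb-Skn. In a fit of all 19501 genes with at least 1 count it was higher in Fb-Epn than Fb-Skn (4.18, SE 0.65, adjusted p = 2.4e-07) and than Fb-Par (1.87, SE 0.48, adjusted p = 0.0014). These values rest on Fb-Epn replicates 1 and 2, since replicate 3, at 0.49 TPM, was below the 0.53 to 0.84 TPM of the Fb-Par libraries, and with 0 to 2 counts per Fb-Skn library the size of the first one depends on the prior count of the fit.

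The leukocyte markers moved with type as well, and their order was not that of *Cd74*. Of the 24 leukocyte rows 14 were tested. A row can pass the expression filter through 1 type alone, so which rows were tested depends in part on where they are high. All 14 were higher in Fb-Epn than Fb-Skn (all genes 23.0%, median log2 fold change of the 14 4.09) and than Fb-Par (20.2%, 1.94). In Fb-Par against Fb-Skn 13 of 14 were higher (23.2%, 2.21). In Fb-Par against Fb-Skn *Cd74* was lower and *RT1-Bb* and *RT1-Da* were not called (-1.03 and -0.96). *RT1-DMb* ran in the order of the leukocyte markers, with 2.32 for Fb-Par against Fb-Skn in the fit of all genes with at least 1 count (adjusted p = 0.010, not called, edgeR) and 2.32, called, without Fb-Epn replicate 3 (adjusted p = 0.0079). That was the only fit without 1 library in which *RT1-DMb* was called past 4-fold there. Its counts were 8, 6 and 10 in Fb-Par and 2, 2 and 0 in Fb-Skn. *Lyz2* stood at 957.2, 177.6 and 60.6 TPM in the epineurial, parenchymal and skin types, where *Cd74* stood at 7.94 ± 1.37, 1.96 ± 0.778 and 4.87 ± 1.36 (SD, n = 3). The part of macrophage transcripts in the class II values of Fb-Epn was not tested.

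**Figure D4:**
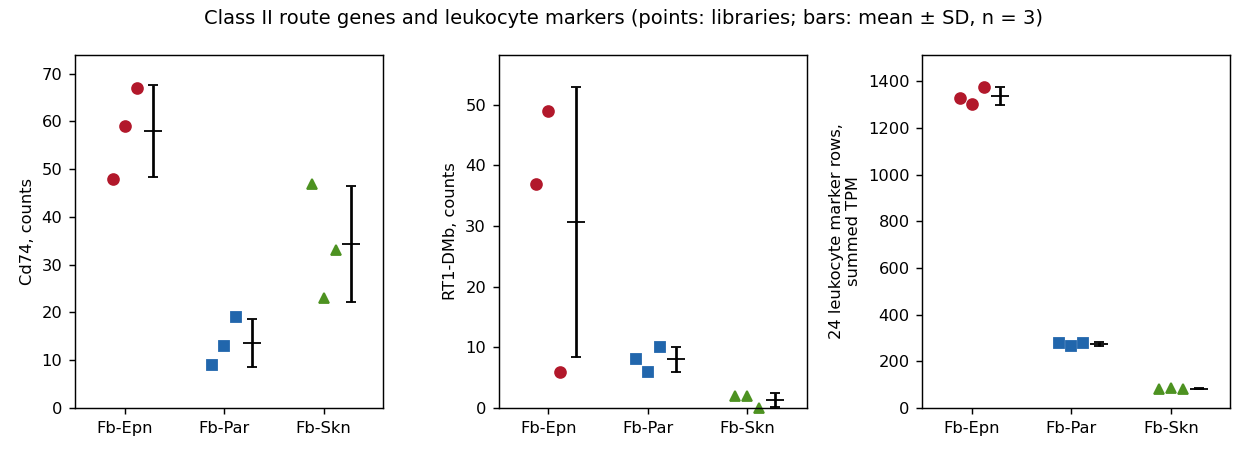
Counts of *Cd74* and *RT1-DMb* and the summed TPM of 24 leukocyte marker rows in each library (points), with the mean and SD of the 3 libraries of a type. *Cd74* is lowest in Fb-Par, at 9 to 19 counts, while the leukocyte sum is lowest in Fb-Skn, at 80.6 to 84.1 TPM.

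The coactivators themselves were at the limit of detection. *Ciita* had 3, 2 and 0 counts in the Fb-Epn libraries, 2, 0 and 4 in those of Fb-Par and 0, 1 and 4 in Fb-Skn. *Nlrc5* had 6, 7 and 7 counts in the Fb-Epn libraries, 0, 3 and 3 in those of Fb-Par and 3, 6 and 5 in Fb-Skn. Neither passed the filter, and a difference between types was not detectable at this depth. Of the other 14 untested members, *RT1-DMb* reached 49 counts in a library, *RT1-CE3* 15, *RT1-DMa* 8, *RT1-Ba* and *RT1-S2* 7 each, *RT1-Db1* 6, *RT1-CE1* 4, *RT1-DOb* 3 and *RT1-M2* and *RT1-M4* 1 each. *RT1-DOa*, *RT1-Db2*, *RT1-Ha* and *RT1-M5* were at 0 in every library, which allows up to 3 counts per library and covers counting error only. *RT1-CE3*, with 7, 11 and 7 counts in the Fb-Epn libraries, 1, 3 and 4 in those of Fb-Par and 7, 15 and 14 in Fb-Skn, was lower in Fb-Par than Fb-Skn in the fit of all genes with at least 1 count (log2 fold change -2.30, SE 0.62, adjusted p = 0.0019, edgeR).

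Other genes of the pathway, from lists outside the membership rule, gave a wider frame. Of 19 genes of class I loading and peptide supply, all tested, 1 was higher and 9 were lower in Fb-Epn than Fb-Skn (all genes 23.0% and 20.9%), 5 were higher and 2 lower in Fb-Epn than Fb-Par (20.2% and 18.6%), and 1 was higher and 8 lower in Fb-Par than Fb-Skn (23.2% and 22.4%). Among those called, the chaperone *Hspa5* had the largest difference against skin (log2 fold change -0.66 in Fb-Epn, adjusted p = 1.4e-10, and -0.58 in Fb-Par, adjusted p = 5.3e-10, edgeR). Against Fb-Skn the proteasome subunit *Psmb5* (-0.47) was lower and the aminopeptidase *Npepps* (0.43) higher in Fb-Epn. *Erap1*, which trims peptides in the endoplasmic reticulum, was lower in Fb-Epn than Fb-Par (-0.49, adjusted p = 6.5e-07), while the chaperone calreticulin, *Calr* (0.37), and the translocon subunit *Sec61a1* (0.21) were higher. Both of the latter were also lower in Fb-Par than Fb-Skn (-0.44 and -0.51).

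The list for the class II route mixed genes of peptide processing with surface ligands and receptors of T cell contact, such as *Cd274* and *Cd40*. Its counts are therefore not of processing genes alone. Of 16 genes with a row 13 were tested, with 9 higher and 2 lower in Fb-Epn than Fb-Skn (all genes 23.0% and 20.9%). In Fb-Epn against Fb-Par 6 were higher and 4 lower (20.2% and 18.6%), and in Fb-Par against Fb-Skn 8 were higher and 3 lower (23.2% and 22.4%). Cathepsin S (*Ctss*), the protease that cuts the invariant chain in antigen presenting cells, was at 47.7, 11.7 and 4.36 TPM in the epineurial, parenchymal and skin types (log2 fold change 3.30 for Fb-Epn against Fb-Skn, adjusted p = 1.5e-09, and 2.03 against Fb-Par, adjusted p = 8.3e-08, edgeR). *Slc11a1*, a metal transporter of macrophage phagosomes, followed the same order (2.97 and 1.37, and 1.595 in Fb-Par against Fb-Skn). *Ctsz*, a further cathepsin, was higher in Fb-Epn than Fb-Par (1.38). These are genes that macrophages also express, and the leukocyte sums above ran in the same order as *Ctss* and *Slc11a1*. Their part in these differences was not tested. *Cd274*, the inhibitory ligand PD-L1, was at 7.34, 6.73 and 1.33 TPM and higher in both nerve types than in skin (2.33, adjusted p = 6.6e-06, and 2.20, adjusted p = 1.2e-05). *Cd40*, a receptor of the tumour necrosis factor family that T cells engage, was lower in both nerve types than in skin (-2.12 in Fb-Epn, adjusted p = 1.7e-06, and -1.55 in Fb-Par, adjusted p = 2.4e-05).

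A list of 29 genes that control MHC transcription held transcription factors along with interferon receptors and signalling genes below them, such as *Jak2*. Of these, 28 were tested, with 8 higher and 6 lower in Fb-Epn than Fb-Skn (all genes 23.0% and 20.9%). In Fb-Epn against Fb-Par 8 were higher and 1 lower (20.2% and 18.6%), and in Fb-Par against Fb-Skn 4 were higher and 9 lower (23.2% and 22.4%). *Relb*, a subunit of the non-canonical NF-kappa B pathway, ran Fb-Skn, Fb-Epn, Fb-Par at 20.7, 13.1 and 8.14 TPM (log2 fold change -1.50 for Fb-Par against Fb-Skn, adjusted p = 3.7e-07, -0.80 for Fb-Epn against Fb-Skn and 0.70 for Fb-Epn against Fb-Par, edgeR). Its partner *Nfkb2* was also lower in Fb-Par than Fb-Skn (-0.89). *Irf7*, an interferon regulatory factor, was highest in Fb-Par, at 9.73 TPM against 4.28 in Fb-Epn and 3.49 in Fb-Skn (1.32 for Fb-Par against Fb-Skn, adjusted p = 0.0010). *Irf3*, another of that family, was lower in Fb-Epn than Fb-Skn (-0.89), and *Irf8*, a factor of myeloid cells, was higher (1.48). The kinase *Jak2*, which acts below the interferon gamma receptor, was higher in Fb-Epn than Fb-Par (0.98, adjusted p = 5.7e-10).

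Class I rows are hard to count apart, and the levels of single rows are uncertain for that reason. The animals were Lewis rats, while rn6 comes from the BN strain, which carries another RT1 haplotype, and the treatment of reads with several best positions is not given in the sources used here. Either could also change the summed class I rows and the ratio of *B2m* to them, which was not tested. On rn6 *RT1-CE7* and *RT1-CE4* span 202499 bases in common on the same strand, a stretch that also holds *RT1-CE5* and the highly expressed *Ddx39b* (up to 2666 counts in a library). *RT1-A2* lies wholly within *RT1-A1* (3555 bases shared), and *RT1-M6-1* and *RT1-M6-2* overlap by 3201 bases and lie opposite *Znrd1as1*. *RT1-S3*, *RT1-N3* and *RT1-T24-4* lie opposite an antisense row with up to 71 counts. How strand entered the counting is not given in the sources used here.

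A second reading of the same rows comes from the 2 deposited length-scaled units. The mean FPKM divided by the mean TPM was 0.471 at the median of 13432 genes, with 0.365 and 0.534 at the 5th and 95th percentiles. *B2m* (0.475), *Tapbp* (0.465) and *Tap1* (0.457) were close to that median. Of the 25 tested members 9 were above the 95th percentile, *RT1-A1* (1.006), *RT1-CE10* (0.979) and *RT1-A2* (0.874) by most, then *RT1-T24-4* (0.599), *RT1-T24-1* (0.598), *RT1-CE7* (0.564), *RT1-CE4* (0.559), *Psmb8* (0.546) and *RT1-CE5* (0.542). *RT1-M6-2* was at 0.0245, below the 5th. For these rows a level depends on the deposited unit, and with limma on log2(FPKM + 1), chosen after seeing the data, 8 members were called in Fb-Epn against Fb-Skn, 9 in Fb-Epn against Fb-Par and 11 in Fb-Par against Fb-Skn.

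**Figure D5:**
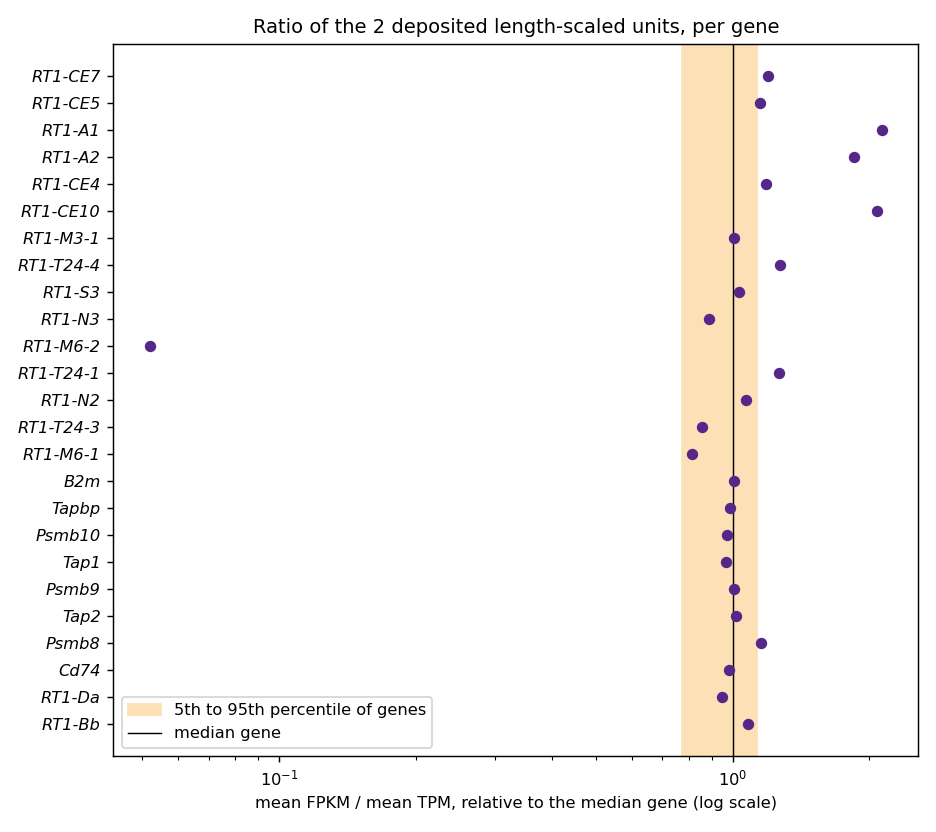
Mean FPKM over mean TPM of each tested member relative to the median gene, on a log scale, with the range from the 5th to the 95th percentile of 13432 genes shaded. *RT1-A1*, *RT1-A2* and *RT1-CE10* lie at 2.13, 1.85 and 2.08 and *RT1-M6-2* at 0.052, while *B2m* lies at 1.007.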

How the data were processed

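Poly(A) RNA of 9 samples, 3 of each type, was sequenced in directional libraries with paired ends of 150 bp. Per the labels, the submitters' processing notes name FastQC 0.11.7, Trimmomatic 0.38, HISAT2 2.1.0, featureCounts 1.6.3 and the build rn6. The annotation release, the use of strand and the handling of reads with several best positions are not given in the sources used here. The authors deposited raw counts per gene. The deposited TPM equal count divided by 1 length per gene, scaled to a fixed sum (largest relative deviation 1.8e-07). The authors also deposited FPKM, which is no rescaling of the counts.

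The count table went through edgeR 4.0.16 in R 4.3.3, with TMM factors, the default expression filter (13273 genes), and a quasi-likelihood fit of all 9 libraries with the 3 comparisons as contrasts. P-values were Benjamini-Hochberg adjusted over all genes tested in a comparison, two-sided, with a threshold of 0.01, and 4-fold means a log2 fold change beyond 2 in size. Replicate libraries varied with a common coefficient of variation of 8.25%. Members were read off this fit, and the steps were tested on simulated data. Summed TPM and ratios carry no test. Groups and replicate numbers came from the sample titles. No libraries of 1 type were found to be duplicates within counting noise (chi-square per degree of freedom 3.31 to 5.48), which does not show that they came from separate cultures.

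The members and all gene lists were chosen with earlier results of these data known. Values per library are given for members past 4-fold, for *B2m*, *Cd74*, *Ciita*, *Nlrc5*, *Tap1*, *Tap2*, *Tapbp*, *Psmb8*, *Psmb9* and *Psmb10*, and for the 3 class I rows with the highest mean TPM (*RT1-CE7*, *RT1-CE5* and *RT1-M3-1*), and further rows were chosen after their values were seen. Of each list of other genes, the 3 called genes with the largest change in each comparison are named, and of each marker list those with the highest or lowest mean TPM. Motifs were searched in RefSeq promoters of GRCr8 with Python 3.11.15 and pandas 2.3.3. Alternatives were RLE, upper-quartile and total-count scaling, DESeq2 1.42.0, limma 3.58.1 on log2(TPM + 1), log2(TPM + 0.1) and log2(FPKM + 1), filters of at least 1 count or of 10 counts in every library, only the libraries compared, each library left out, and the replicate number as a block. Figures were made with matplotlib 3.10.9.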

Additional observations from a re-analysis of the deposited data

How the results depend on the processing

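Over the alternatives other than leaving out a library, the number of members called stayed within 1.5 times its value in all 3 comparisons. With each library left out in turn, members called ranged from 6 to 8 in Fb-Epn against Fb-Skn, 5 to 8 in Fb-Epn against Fb-Par and 8 to 12 in Fb-Par against Fb-Skn. Those past 4-fold ranged from 1 to 2, 1 to 2 and 1 to 3, with *RT1-DMb*, *RT1-CE3*, *RT1-T24-1* and *RT1-T24-3* among those added. These fits tested 26 or 27 members against 25 in the main fit, whose filter *RT1-DMb* and *RT1-CE3* did not pass. In Fb-Epn against Fb-Skn, with 0 past 4-fold in the main fit, *RT1-DMb* passed it in every such fit except that without Fb-Epn replicate 2. Members past 4-fold were 1 in Fb-Epn against Fb-Skn with total-count scaling (*RT1-T24-3*) or with all genes of at least 1 count (*RT1-DMb*), 0 in Fb-Epn against Fb-Par and 0 in Fb-Par against Fb-Skn with limma on log2(TPM + 1) or log2(FPKM + 1), with at least 10 counts in every library, or when edgeR tested against a log2 fold change of 2, and 2 in Fb-Par against Fb-Skn with all genes of at least 1 count (*RT1-CE3* and *RT1-T24-3*). With at least 10 counts in every library the 0 was fixed by the filter. *Cd74* had 9 counts in Fb-Par replicate 1 and *RT1-T24-3* had 2 to 5 in Fb-Skn, so neither was tested there. The replicate numbers did not pair the samples (r of same-numbered libraries from -0.051 to 0.040 in 9 pairs, best partner by number in 3 of 18), and with the replicate block 6, 6 and 10 members were called and 0, 1 and 1 passed 4-fold. The block ended the calls of *RT1-S3* (0.52) in Fb-Epn against Fb-Skn and of *Psmb9* (0.78) and *RT1-Bb* (1.51) in Fb-Epn against Fb-Par. In Fb-Epn against Fb-Skn the median of all genes was -0.003 in the main fit and 0.086 with total-count scaling. With limma it was 0.126 on log2(TPM + 1) and 0.137 on log2(TPM + 0.1). In Fb-Par against Fb-Skn the medians were -0.012, 0.083, 0.123 and 0.136 in the same order.

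On FPKM in place of TPM, chosen after seeing the data, *Psmb8* was at 1.45% of *Psmb5* in Fb-Epn, and the ratio of *B2m* to the class I rows was 2.00, 6.84 and 4.21. The summed TPM of the class II RT1 rows other than *RT1-DMb*, also chosen after seeing the data, was 3.56 in Fb-Epn and 0.998 in Fb-Par. Only members that were not called changed sign. *Psmb10* in Fb-Epn against Fb-Skn was 0.038, 0.040 and 0.066 with limma on log2(TPM + 1), log2(TPM + 0.1) and log2(FPKM + 1), and -0.23 to 0.0089 without 1 library. *RT1-CE4* there was 0.022 with total-count scaling, 0.070 and 0.082 with limma on TPM, and -0.21 to 0.056 without 1 library. In Fb-Epn against Fb-Par, *Tap2* was -0.016, -0.021 and -0.069 with limma on the same 3 scales and -0.15 to 0.13 without 1 library, *RT1-M6-1* was -0.018 and -0.054 with limma on TPM, -0.019 with the replicate block and -0.39 to 0.23 without 1 library, and *RT1-S3* was 0.031 with limma on FPKM and -0.12 to 0.023 without 1 library. In Fb-Par against Fb-Skn, *Psmb10* was -0.10 to 0.14 and *RT1-M6-2* -0.057 to 0.19 without 1 library, *RT1-M6-1* was -0.0024 and *RT1-N3* -0.081 with limma on FPKM, and *RT1-N3* -0.12 to 0.22 without 1 library. At this depth *Nlrc5* and 9 of 12 class II members, *Ciita* among them, did not pass the filter, and the cause of these changes was not tested.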
